A study of Mus musculus with 6 samples.

Results

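The chemokine receptor gene Cxcr4 and the chemokine genes Cxcl12, Cxcl1, Ccl2 and Cx3cl1 were examined in whole adrenals of 2 mouse strains, BPH, which is hypertensive, and BPL, which is hypotensive. They are 5 of the 8251 genes that have a probe set of their own on the Affymetrix MG_U74Av2 array. Every probe set annotated with 1 of these genes and no other was taken, which gave 9 of the 12488 probe sets. Total RNA of whole adrenal glands was hybridised to 3 BPH arrays and 3 BPL arrays. The labels name no treatment, sex or age, and do not say how many animals stand behind an array, so the spread between arrays may be technical. The genes were brought together with the strain difference of these arrays already known, Cxcr4 in particular for its large difference, so their differences are given as descriptions without a test.

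Chemokines are small secreted proteins that guide moving cells along gradients, and they act through receptors coupled to inhibitory G proteins. Cxcl12, made by stromal and endothelial cells, is the chemokine ligand of Cxcr4, a receptor known for holding leukocytes and blood progenitors in the bone marrow and for guiding cells that build vessels and nerves. Ackr3 binds the same ligand and removes it without G protein signalling. Cxcl1 attracts neutrophils through Cxcr2, and Ccl2 attracts monocytes through Ccr2. Cx3cl1 is tethered to the membrane of endothelial and neural cells and is sensed by Cx3cr1 on monocytes and macrophages.

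The 250 bases before the annotated start are shown for the 3 genes with at least 1 probe set whose BPH and BPL arrays did not overlap. They are RefSeq sequences of the GRCm38.p6 build of the C57BL/6J genome, not of BPH or BPL, which held 4 of the 5 genes and none for Ccl2. Capitals mark matches on either strand to the NF-kB motif GGNNTTTCC, the NRF1 motif CGCATGCG, the GC box GGGCGG and the TATA box TATAAA.
Cxcr4, chr1:128592300-128592549, minus strand: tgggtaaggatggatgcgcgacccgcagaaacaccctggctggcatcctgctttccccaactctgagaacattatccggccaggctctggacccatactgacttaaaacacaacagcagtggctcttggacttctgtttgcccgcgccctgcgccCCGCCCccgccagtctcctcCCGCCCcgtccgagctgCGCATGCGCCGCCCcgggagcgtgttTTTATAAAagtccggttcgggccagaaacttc
Cxcl12, chr6:117168285-117168534, plus strand: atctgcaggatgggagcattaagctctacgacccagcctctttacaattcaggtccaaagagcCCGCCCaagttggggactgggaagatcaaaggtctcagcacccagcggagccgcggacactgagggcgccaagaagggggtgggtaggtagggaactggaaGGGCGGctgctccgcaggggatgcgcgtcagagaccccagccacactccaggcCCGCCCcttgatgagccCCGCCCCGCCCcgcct
Cxcl1, chr5:90890995-90891244, plus strand: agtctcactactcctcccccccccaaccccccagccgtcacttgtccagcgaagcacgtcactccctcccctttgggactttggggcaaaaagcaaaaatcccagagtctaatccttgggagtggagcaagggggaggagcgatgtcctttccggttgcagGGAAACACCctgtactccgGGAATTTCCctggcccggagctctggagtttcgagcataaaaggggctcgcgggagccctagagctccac
The 3 windows held different motifs. The Cxcr4 window held the NRF1 motif once, starting at -58 from the gene start, 3 GC boxes, of which the last follows the NRF1 match directly, and 2 overlapping TATA box matches at -32 and -30. The Cxcl12 window held 5 GC boxes, of which the last pair, at -16 and -11, share a base, and none of the other motifs. The Cxcl1 window held the NF-kB motif at -89 and at -70, and none of the others as spelled. Of 32851 RefSeq promoters of the same length, 4.93% held the NF-kB motif, 1.55% the NRF1 motif, 32.7% the GC box and 12.4% the TATA box. A match is a description of the letters in the window.

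Values are the deposited intensities on a linear scale, which the authors had scaled so that the trimmed mean was equal on all arrays. For differences, any intensity under 201.3, the 20th percentile of the table, was raised to it as a floor before taking log2, and a difference is BPH minus BPL. Probe sets passed the filter on low values when the mean of these log2 values corresponded to an intensity of at least 668.1, the 40th percentile. The filter kept 7293 probe sets, of which limma called 184, or 2.52%, at a Benjamini-Hochberg adjusted p under 0.05. Cortex and medulla were both present on every array, as the steroid enzyme gene Cyp11a1 lay between 77179 and 93027 and the catecholamine enzyme gene Th between 9236 and 25099 over the 6 arrays. The arrays BPH 1 and BPL 2 stood apart by skeletal muscle transcripts, with marker means of 12.71 and 13.45 on the log2 scale against 8.84 to 10.07 on the other arrays. The arrays BPH 1 and BPH 2 were processed on fluidics station 2 and the other 4 on station 1, so within station 1 a difference sets BPH 3 alone against the BPL arrays.

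Of the 9 probe sets, 4 passed the filter: Cxcr4, the Cxcl12 sets 100112_at and 160511_at, and the Cx3cl1 set 98008_at. Of these 4, 1 was called higher, Cxcr4, and none lower, where 1.56% of all tested probe sets were called higher and 0.96% lower. Nothing is read from that count, because the same contrast chose the gene. The arrays of the strains did not overlap for 4 of the 9, Cxcr4 higher in BPH and 1 Cxcl12 set and both Cxcl1 sets lower, while 21.3% of all 12422 non-control probe sets had arrays that did not overlap, 10.5% with BPH higher and 10.8% with BPH lower. Among tested probe sets alone that share was 26.5%.

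**Figure D1:**
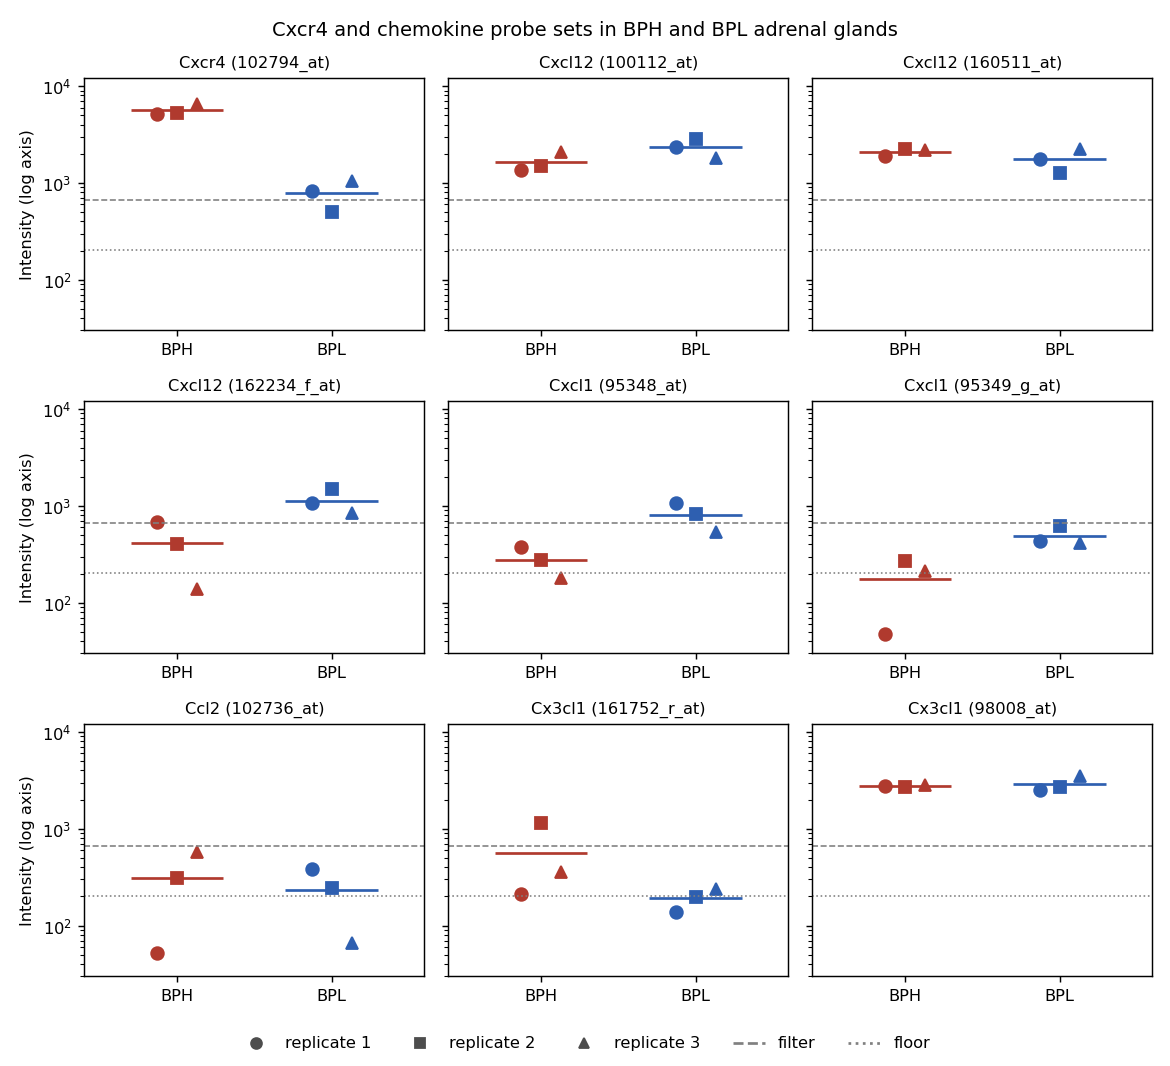
Intensity (log axis) of each of the 9 probe sets on the BPH and BPL arrays, with the marker shape giving the replicate, horizontal bars the strain means, the dashed line the filter at 668.1 and the dotted line the floor at 201.3. The Cxcr4 arrays of BPH lie between 5104 and 6512, all above the BPL arrays, and both Cxcl1 sets lie lower in BPH.

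Cxcr4, at probe set 102794_at, was several times brighter in BPH adrenal glands. Its intensity was 5104, 5217 and 6512 on BPH 1, 2 and 3, and 826.8, 499.1 and 1049 on BPL 1, 2 and 3. The lowest BPH array lay far above the highest BPL array, and no array lay below the floor. The means were 5611 ± 783 in BPH and 792 ± 277 in BPL (SD, n = 3 each), a ratio of 7.09 and a log2 difference of 2.88 (SE 0.26). Only 6 of the 7293 tested probe sets had a larger difference in either direction. BPH 3 was the highest of the BPH arrays, and BPL 2 the lowest of all. The log2 difference was 3.11 within station 1 and 2.65 with BPH 1 and BPL 2 left out for their muscle transcripts. Its call was lost when the filter was left out and within station 1, although the difference stayed as large. The array holds 1 probe set for Cxcr4, so no other set checks it.

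**Figure D2:**
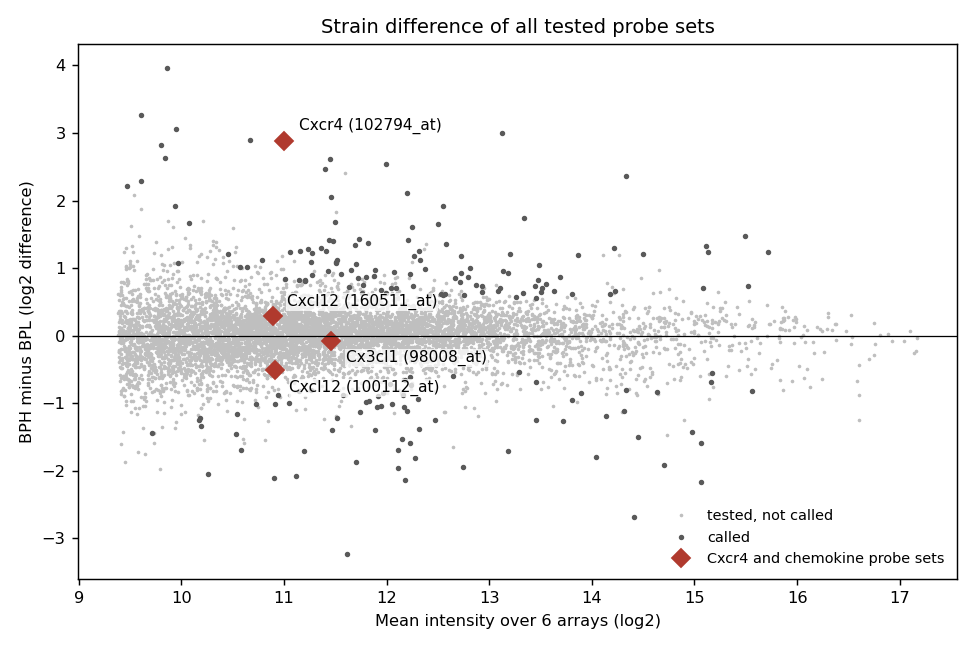
Log2 difference (BPH minus BPL) against mean log2 intensity for the 7293 tested probe sets, with called sets in dark grey and the 4 tested sets of Cxcr4, Cxcl12 and Cx3cl1 as diamonds. Cxcr4 lies at 2.88 near the upper edge of the cloud, and the other 3 lie between -0.51 and 0.28 inside it.

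The 3 probe sets of Cxcl12 did not run in 1 direction. The set 100112_at had 1359, 1502 and 2063 on the BPH arrays and 2343, 2871 and 1812 on the BPL arrays. BPH 3 lay above BPL 3, so the strains overlapped, with a log2 difference of -0.51 (SE 0.23) -0.16 within station 1 and -0.23 without both BPH 1 and BPL 2. The set 160511_at had 1902, 2219 and 2172 in BPH and 1779, 1277 and 2233 in BPL, where BPL 3 was the brightest array of all and the log2 difference was 0.28 (SE 0.22), or 0.34 within station 1. That difference was 0.07 without BPL 2, 0.47 without BPL 3 and 0.14 without both BPH 1 and BPL 2, so single arrays set its size.

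The set 162234_f_at, whose suffix marks probes that may match a family of sequences, failed the filter. Its intensity was 689.2, 401.4 and 137.5 in BPH and 1060, 1485 and 842.0 in BPL, so all BPH arrays lay below all BPL arrays. The log2 difference was -1.52 (SE 0.53 in a fit without the filter), and -2.45 within station 1, with BPH 3 at the floor. At the 2 Cxcl12 sets that passed the filter the strains overlapped and the differences had opposite signs, and the dim set 162234_f_at separated the strains in the opposite direction to Cxcr4.

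Both Cxcl1 probe sets were dimmer in BPH, and both failed the filter. The set 95348_at had 375.9, 273.2 and 181.6 in BPH and 1077, 815.1 and 543.4 in BPL, and the set 95349_g_at had 47.2, 268.8 and 211.1 in BPH and 429.0, 623.8 and 413.8 in BPL. In each set every BPH array lay below every BPL array, with 1 BPH array under the floor. The log2 differences were -1.51 (SE 0.36) and -1.09 (SE 0.21), from the fit without the filter, and -1.96 and -1.19 within station 1. With the array under the floor they understate the difference. Sets that share a gene are not separate evidence, and the suffix of the second marks probes that may match related genes.

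Ccl2 lay near the floor in both strains. Its intensity was 52.7, 313.1 and 570.2 in BPH and 384.6, 247.5 and 65.7 in BPL. The spread within each strain was wider than the gap between the means, and the log2 difference of 0.30 (SE 0.47, fit without the filter) was 1.09 within station 1, 0.66 without BPH 1, 0.56 without BPL 1, 0.10 without BPL 3 and -0.09 without BPH 3.

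Cx3cl1 was about equally bright in both strains at the set that passed the filter. The set 98008_at had 2755, 2689 and 2809 in BPH and 2518, 2719 and 3530 in BPL, with a log2 difference of -0.07 (SE 0.16), which was 0.07 without BPL 3 and -0.17 without BPL 1. The BPH arrays lay within 2689 to 2809, and BPL 3 stood above the rest. The set 161752_r_at, built under relaxed probe rules, had 209.7, 1139 and 356.8 in BPH and 139.7, 199.5 and 238.5 in BPL, with a log2 difference of 1.05 (SE 0.66, fit without the filter). BPH 1 lay within the BPL range, BPH 2 was by far the highest array and 2 BPL arrays lay under the floor. The difference was 0.36 without BPH 2 and 1.58 without BPH 1.

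Of the other receptors of these ligands, Ackr3 and Cx3cr1 were tested and neither was called. Ackr3, the scavenger of Cxcl12, had 7612, 10350 and 8869 in BPH and 6763, 6450 and 7692 in BPL, overlapping at 1 array, with a log2 difference of 0.35 (SE 0.14, limma adjusted p = 0.225). Cx3cr1, the receptor of Cx3cl1, had 1662, 1807 and 2047 in BPH and 2228, 2447 and 1625 in BPL, a log2 difference of -0.18 (SE 0.19, limma adjusted p = 0.654). Cxcr2, the receptor of Cxcl1, and Ccr2, the receptor of Ccl2, failed the filter and were not tested, with highest values of 677.4 and 626.2 on any array.

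Most of the remaining chemokine system was dim in the adrenal gland. Of 59 other ligand and receptor genes listed, 41 were on the array with 1 annotated gene, with 42 probe sets, and 7 passed the filter. In limma 0 of the 7 were called, with 3 at an unadjusted p below 0.05, while 2.43% of 5555 genes were called at their brightest tested probe set. None of the 8 other CXC and C ligand genes passed the filter. Of the CC ligands, Ccl22 had a log2 difference of -0.57 (SE 0.20), Ccl6 of 0.98 (SE 0.40) and Ccl1 of -0.19 (SE 0.33). Ccl6, a chemokine of mouse myeloid cells, had 825.1, 1125 and 1236 in BPH and 334.8, 912.7 and 489.5 in BPL, overlapping between BPH 1 and BPL 2. The atypical receptor Ccrl2 and the XC receptor Xcr1 differed by -0.10 (SE 0.20) and -0.01 (SE 0.57). Xcr1 ranged from 325.4 to 1342 in BPH and from 514.0 to 1257 in BPL. The arrays did not overlap for 3 of the 42 sets, those of Ccr3, Ccr6 and Ccr7, all below the filter, against the 21.3% of all probe sets.

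Among genes of Cxcr4 signalling and trafficking, 25 of 33 were on the array, 21 passed the filter, 1 was called higher and 0 lower, where 1.53% of all tested genes were called higher and 0.9% lower. The called gene was Rgs2, a regulator that speeds the shutdown of G proteins. Its intensity was 27121, 33451 and 29282 in BPH and 13117, 9883 and 13610 in BPL. All BPH arrays lay above all BPL arrays, with a log2 difference of 1.30 (SE 0.15, limma adjusted p = 0.00401). The call was lost in a fit without the filter and with the fluidics station as a block or within station 1. Rgs2 had been seen among these results before the list was made.

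Gnb1, a G protein beta subunit, was not called at its brightest set, which had 14226, 12072 and 12282 in BPH and 9449, 8969 and 9511 in BPL, with a log2 difference of 0.46 (SE 0.11, limma adjusted p = 0.0746). Its other 2 tested sets differed by 0.62 and 0.64 with arrays that did not overlap, and the mean of the 3 sets was called. The inhibitory alpha subunit genes Gnai1, Gnai2 and Gnai3, which couple Cxcr4 to its effectors, differed by 0.10, 0.00 and 0.29. Gnaq, an alpha subunit of another class, differed by -0.48, and the kinase gene Akt1 by 0.31. The receptor kinase genes Grk5 and Grk6 and the arrestin gene Arrb1, which switch off and internalise receptors, differed by 0.25 (SE 0.17), 0.20 (SE 0.51) and 0.14 (SE 0.24). Grk6 had 972.1 on BPL 1 against 3836 and 4914 on BPL 2 and BPL 3. A further tested Arrb1 set differed by 0.02. The median over the 21 genes was 0.10, against 0.04 over all tested genes.

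Genes of ligand processing and of known control of Cxcr4 and the chemokines showed no called member. Of alternative ligands and ligand-cutting proteases, 3 of 9 genes on the array passed the filter: Elane, a neutrophil protease that can cut Cxcl12 (log2 difference -0.67, SE 0.25), Adam10, which sheds Cx3cl1 (0.36, SE 0.20), and Cd74, which pairs with Cxcr4 in sensing Mif (0.30, SE 0.20). A further Adam10 set, below the filter, had the opposite sign (-0.58, SE 0.35 in a fit without the filter). Of known regulators of Cxcr4 transcription, 3 of 6 passed: Yy1, described as a repressor (0.49, SE 0.17), and the hypoxia factors Epas1 (-0.26, SE 0.20) and Hif1a (-0.10, SE 0.10). Hif1a had 11649, 11592 and 11426 in BPH and 12725, 12226 and 12191 in BPL at its brightest set, so all BPH arrays lay slightly below all BPL arrays.

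Of NF-kB pathway and endothelial inflammation genes, 8 of 17 passed the filter and 0 were called by limma, also 0 at an unadjusted p below 0.05 at their brightest set. Nfkbia, the inhibitor that NF-kB itself induces, differed by 0.29 (SE 0.13), and by 0.40 (SE 0.15) at its other tested set, which had an unadjusted p below 0.05 and was not called. The arrays did not overlap at 5 of the 23 probe sets of this list, all with BPH higher, both tested Nfkbia sets among them. Of all non-control probe sets 21.3% did not overlap, 10.5% with BPH higher. The others were a set each of Icam1 (0.69, SE 0.17 in a fit without the filter), Relb and Selp, all below the filter. Selp lay under the floor on every array. The remaining genes with the smallest p-values were the mRNA decay factor Zfp36 at 0.48 (SE 0.31), the adhesion molecule Vcam1 at -0.36 (SE 0.26), though at 0.06 at its other tested set, and the tumour necrosis factor receptor gene Tnfrsf1a at -0.19 (SE 0.16), with its other tested set at -0.58. Il1b and Tnf, which induce Cxcl1 and Ccl2, failed the filter, as did the cytokine gene Il6.

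**Figure D3:**
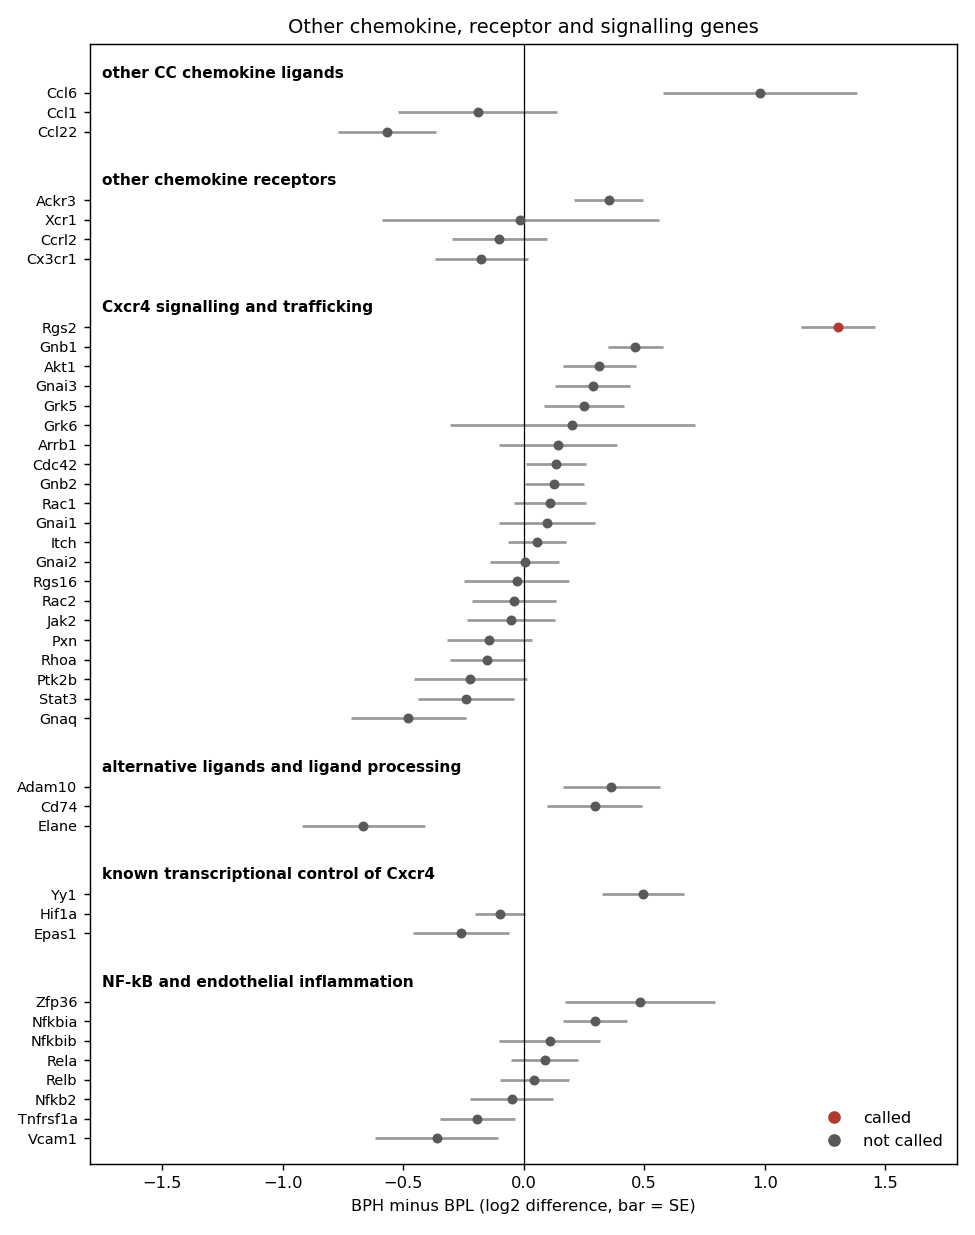
Log2 difference (BPH minus BPL) with its SE for each other chemokine, receptor, signalling and control gene that passed the filter, at its brightest tested probe set and grouped by list. Rgs2 at 1.30 is the called gene, and the others lie between -0.67 and 0.98.

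In whole glands, more cells of a type that carries Cxcr4 and more Cxcr4 RNA per cell cannot be told apart. Markers of leukocytes, the cells best known for Cxcr4, did not follow it as lists. T and NK cell markers, of which 1 of 9, Cd4, passed the filter, summed to between 1566 and 2581 in BPH and between 2450 and 3690 in BPL. B cell markers, 3 of 7 past the filter, summed to between 3911 and 5347 in BPH and between 5329 and 6223 in BPL. Neutrophil and bone marrow markers, 2 of 8 past the filter, summed to between 3850 and 4390 in BPH and between 4515 and 6084 in BPL. Each of these sums was level or lower in BPH. The sums are of intensities without the floor, so the brightest genes weigh most, and means of floored log2 values can differ. By mean log2 intensity, B cell markers lay at 8.77 to 9.21 in BPH and 9.24 to 9.34 in BPL, without overlap. Neutrophil and bone marrow markers lay at 8.51 to 8.65 in BPH and 8.64 to 8.94 in BPL, with overlap.

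Macrophage markers, 8 of 13 past the filter and 0 called by limma, though 4 had an unadjusted p below 0.05, summed to between 22831 and 25136 in BPH and between 21765 and 26075 in BPL. At their brightest sets they split, with Lyz2 at 0.49 and Csf1r at 0.44 against C1qb at -0.80 and C1qc at -0.38. The split depended on the probe set. The other tested sets of Csf1r (-0.18) and C1qb (-0.14) had overlapping arrays. At a dim Lyz2 set below the filter, all BPH arrays lay below all BPL arrays (-0.34). The common leukocyte gene Ptprc stayed below the filter at all 3 sets, and at 101048_at it had 475.5, 378.0 and 292.2 in BPH and 56.2, 168.4 and 196.9 in BPL. That set alone of the 3 separated the strains in the direction of Cxcr4, and its part in the Cxcr4 result was not tested.

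Of the resident cell types, endothelial markers, 9 of 9 past the filter, summed to between 35749 and 37478 in BPH and between 35890 and 38468 in BPL. Limma called 0 of them and 2 had an unadjusted p below 0.05, with arrays that did not overlap and opposite signs: the receptor genes Tie1 (-0.70, SE 0.24) and Tek (0.36, SE 0.14). Fibroblast and stromal markers, 8 of 8 past the filter and 0 called by limma, though 2 had an unadjusted p below 0.05, summed to between 69365 and 69872 in BPH and between 57680 and 60981 in BPL. Their mean log2 intensity overlapped between the strains, at 12.17 to 12.39 in BPH and 12.12 to 12.30 in BPL. At the brightest sets, the matrix gene Dcn (0.52, SE 0.12) and the receptor gene Pdgfra (0.64, SE 0.18) had the smallest p-values. The collagen genes Col1a2 (-0.20) and Col1a1 (-0.17) and the matrix gene Lum (-0.21) had the opposite sign there. The signs depended on the probe set. Another tested set had 0.22 for Col1a2, with arrays not overlapping, 0.29 for Col1a1 and -0.22 for Pdgfra. Without Dcn, a choice made after seeing the values, the other 7 genes summed to between 30071 and 35455 in BPH and between 32819 and 36449 in BPL, which overlap. Adrenal cortex markers, 7 of 7 past the filter and 0 called by limma, differed by 0.09 in mean log2 intensity, with overlapping arrays. Chromaffin markers had a higher mean in BPH by 0.55 on the log2 scale, overlapping at BPL 3. All 6 tested genes had a positive difference at their brightest set, and in limma 4 had an unadjusted p below 0.05. Of the 6, 1 was called higher, Penk, where 1.53% of all tested genes were called higher. Pnmt differed by 0.98, and by 1.19 at its other set, with arrays not overlapping at either. Chga differed by 0.69, but by -0.05 at its other set. The part of chromaffin cells in the Cxcr4 difference was not tested.

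Brown fat markers were dimmer in BPH, the opposite direction to Cxcr4. Their mean log2 intensity was 13.71, 12.84 and 13.32 on the BPH arrays and 14.85, 15.95 and 14.35 on the BPL arrays. The strains did not overlap. Of the 4 genes, 1 was called lower, Ucp1, where 0.9% of all tested genes were called lower. In limma all 4 had an unadjusted p below 0.05. Within BPL, BPL 2 had the highest brown fat mean and the lowest Cxcr4, and BPL 3 the lowest brown fat mean and the highest Cxcr4. Within BPH, BPH 1 had the highest brown fat mean and the lowest Cxcr4, but BPH 2, with the lowest brown fat mean, had nearly the same Cxcr4 value. The part of brown fat in the Cxcr4, Cxcl12 and Cxcl1 differences was not tested. The mean of the 4 general fat markers differed by 0.00, but its members differed in sign, with the adipokine gene Retn at 0.58 (SE 0.17, arrays not overlapping) and the lipid carrier gene Fabp4 at -0.37 (SE 0.23), neither called.

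**Figure D4:**
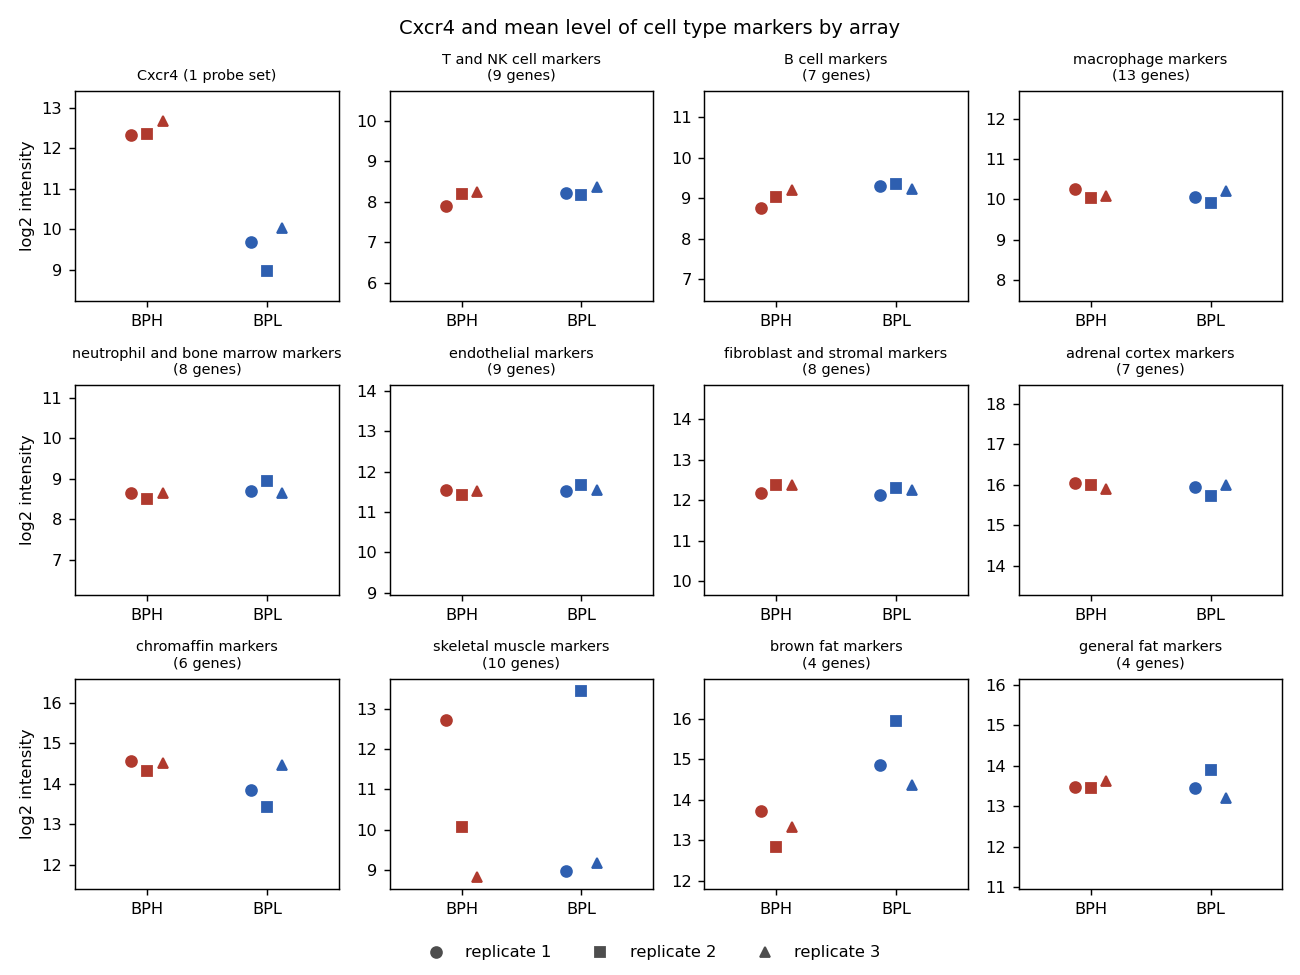
Log2 intensity of Cxcr4 and mean log2 intensity of each marker list on the BPH and BPL arrays, drawn on panels that span the same number of log2 units, with the marker shape giving the replicate. Cxcr4 separates the strains by 2.88, brown fat markers separate them in the other direction by -1.76, and the skeletal muscle markers stand high on BPH 1 and BPL 2.

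The probe sets of other genes whose log2 intensities followed Cxcr4 most closely over the 6 arrays, by Pearson r among 6565 sets that passed the filter, were those of Max (r = 0.996), Gadd45b (0.996), Rab5a (0.995), Asxl1 (0.995) and Csrp1 (0.995). All 5 had BPH arrays wholly above the BPL arrays, with log2 differences of 0.46 for Max, 3.00 for Gadd45b, 0.46 for Rab5a, 0.72 for Asxl1 and 0.88 for Csrp1. An r above 0.95 was reached by 123 sets, and such values mostly restate the strain difference. By deviations from the strain means, which leave the strain difference out, the closest were Tle1 (r = 0.998), Unc45a (0.998), Hp1bp3 (0.996), Rps19 (0.996) and Glb1 (0.995), and none of the first 5 recurred. The 6 arrays share their scaling and are few, so both orders are descriptions.

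**Figure D5:**
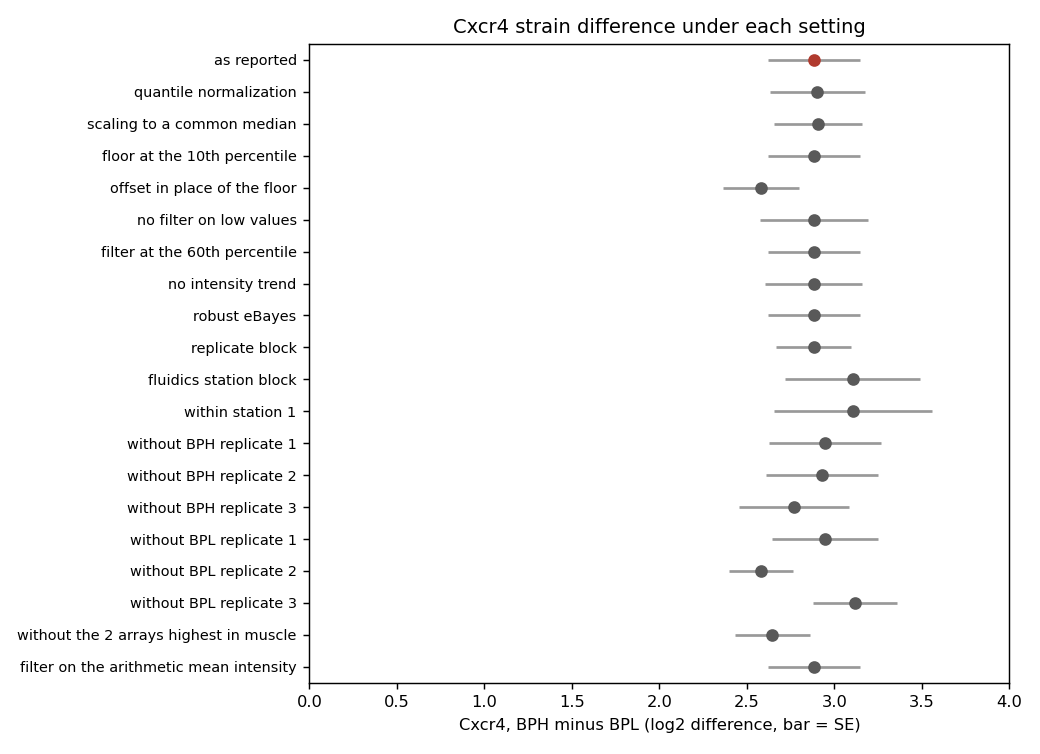
Cxcr4 log2 difference (BPH minus BPL) with its SE as reported and under each other setting of the processing, including each array left out in turn. The difference lies between 2.58 and 3.12 throughout. A changed filter, intensity trend, robust fit or replicate block can alter only the SE.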

How the data were processed

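RNA of adrenal glands, 3 BPH and 3 BPL arrays, was measured on MG_U74Av2 arrays. The deposited values are intensities per probe set, scaled by the authors to trimmed means of 2501.3 to 2501.5 (2% trimmed at each end). For these values the software is not given in the sources used. The array run files hold other settings, per the file headers, from which the fluidics station was read.

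Floored log2 values were fitted in R 4.3.3 with limma 3.58.1 (lmFit, then eBayes with its trend on intensity), without the 66 control probe sets, two-sided, with Benjamini-Hochberg adjustment over 7293 probe sets. The fit was tested on simulated data. A gene is represented by its brightest tested probe set. Names come from the platform annotation, which gives 1 gene to 10855 probe sets, several to 396 and none to 1237, updated by gene number through RefSeq (GRCm38.p6) for 10839. Members and lists were chosen with earlier results of these data known. Genes named are all members, the smallest p-values and called genes of each pathway list, the tested chemokine and receptor genes and the 5 nearest to Cxcr4 by each measure. The G protein, receptor kinase and arrestin genes, the cytokine genes, Ptprc and the other marker genes named, where the rule was up to 3 brightest of each marker list, were chosen after their values were seen. Same-numbered replicates deviated together with r of -0.22, -0.08 and 0.01, so numbers were not taken to pair arrays. The number of arrays limits the precision.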

Additional observations from a re-analysis of the deposited data

How the results depend on the processing

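The 18 results were recomputed under 20 other settings, giving 349 values, of which 327 moved by less than 1 SD or, for counts, 1.5 times. Many of these could not move, as a changed filter, intensity trend, robust fit or replicate block cannot alter a difference. Only the signalling list had a called gene under any setting, so the counts of the other pathway lists stayed at 0. The tally is therefore no measure of stability. The called Cxcr4 difference kept its sign, and the check on direction covered no other. Of the uncalled sets, Ccl2 had -0.09 without BPH 3 and Cx3cl1 at 98008_at had 0.07 without BPL 3, the other sign in each. One of the settings, a filter on the arithmetic mean intensity, was chosen after seeing the data. The log2 difference of Cxcr4 stayed between 2.58 and 3.12. The count of probe sets called over the whole array, 184 as reported, was 52 without the filter, 83 without the intensity trend, 18 with the fluidics station as a block and 7 within station 1. It ran from 39 to 352 when 1 array was left out, with leaving out BPH 1 giving 84, BPH 2 giving 39, BPH 3 giving 48, BPL 1 giving 94 and BPL 3 giving 352. The number of the 9 probe sets called, 1 as reported, was 0 without the filter and 0 within station 1, where fewer arrays were compared. Rgs2 was the 1 called gene of the signalling list; that count was 0 without the filter, 0 with the station block and 0 within station 1, and 2 when all sets of a gene were averaged, which added Gnb1. With the station block and within station 1, the log2 difference was -0.16 for Cxcl12 at 100112_at, -2.45 at 162234_f_at and 1.09 for Ccl2. With the floor at the 10th percentile it was -1.47 for Cxcl1 at 95349_g_at. The cause of these changes was not tested. With the replicate number as a block 124 probe sets were called, Cxcr4 among them at 2.88, and the counts called in the 7 pathway lists did not change. Dim sets near the floor limit what can be said of Ccl2 and Cxcl1.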
